A study of Rattus norvegicus with 3 samples.

Results

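The type I interferon antiviral genes are a group of 34 genes that cells switch on in response to virus or to nucleic acid in the wrong compartment. They were taken by symbol from the platform's probe-to-gene table, and 31 of the 34 were paired there with a probe set of a single gene, out of 14506 genes so paired. The group was chosen with earlier results of these data known, so its counts beside those of all genes are a description and not a test. Parp12, Parp14 and Xaf1 were not matched and were not analysed here. Each of the 31 measured genes had 1 such probe set and stood above the dim level (a log2 level of 5.34, the 25th percentile of all gene means) on every array, and 10879 genes passed that level in all.

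RNA came from the tibialis anterior, a fast muscle of the lower leg, of male Wistar rats that were 11 weeks old and had been fed for 3 weeks on chow that drew 45% of its energy from fat. After 2 weeks of that diet, 150 µg of plasmid DNA was injected into the muscle and driven into the fibres by electric pulses, and tissue was taken 8 days after the pulses. The empty vector group received pcDNA3.1 without an insert, the Plin5 group received pcDNA3.1-CMV-Plin5 and the Plin2 group received pENTR-CMV-Plin2, so both inserts were driven by the viral CMV promoter, and backbone and insert differ together for Plin2. Plin5 (OXPAT) and Plin2 (ADRP) encode proteins that coat lipid droplets. Each group was 1 array of RNA pooled from 6 rats, so no spread between animals could be measured, no difference below was tested, and the precision of each value is limited by the single array. All 3 groups carried plasmid DNA and had been electroporated; the sham-treated opposite leg was not analysed here. The introduced genes stood highest on their own arrays: Plin5 was at a log2 level of 8.30 on the Plin5 array against 7.52 with the empty vector, and Plin2 was at 10.70 on the Plin2 array against 9.99. Skeletal muscle markers such as Acta1 (14.04, 14.02 and 14.04 on the empty vector, Plin2 and Plin5 arrays) were bright on all 3 arrays.

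In the type I interferon pathway, sensors of foreign or misplaced DNA and RNA lead to the release of interferon alpha and beta. These bind a shared receptor on the same or neighbouring cells, whose kinases activate factors, among them Stat2, that join Irf9 in a complex; this complex binds the interferon-stimulated response element in the promoters of target genes. The targets include enzymes that make a second messenger from double-stranded RNA (Oas), GTPases that trap viral particles (Mx), proteins that bind viral RNA (Ifit), ADP-ribosyltransferases (Parp) and the ubiquitin-like modifier Isg15, and also Irf7, Stat2, Irf9 and several sensors themselves, so that the response feeds on itself. Muscle fibres, endothelial cells and the leukocytes that enter injured muscle can all carry it.

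The antiviral genes were higher on the Plin2 array and lower on the Plin5 array than on the empty vector array. On the Plin2 array all 31 were above the empty vector level, by a median of 1.15 log2 units (2.22-fold) and a range from 0.53 (Ifi44) to 1.72 (Ifit3). On the Plin5 array 30 were below it and Bst2 was exactly equal, with a median of −0.39 and a range from −1.76 (Mx2) to 0.00. With the median gene of every array set to 0, Parp9, Stat2 and Bst2 came out slightly above the empty vector on the Plin5 array and the other 28 below. The lowest differences on the Plin5 array were those of Mx2, Oasl, Oas2 and Irf7, whereas Cmpk2, Stat2 and Parp9 were close to the empty vector level there.

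By the measure of at least 1.5-fold, 30 of the 31 genes were higher on the Plin2 array and 0 were lower. Of all genes past the dim level, 8.84% were higher by that much on this array and 5.8% lower; among the 8164 genes within the antiviral genes' range of mean level, 10.4% were higher. Ifi44, at 1.44-fold, was the gene that did not reach 1.5-fold, and 19 reached 2-fold, against 2.5% of all genes. For Plin5, 10 of the 31 were at least 1.5-fold lower and 0 higher, beside 1.42% of all genes lower and 0.221% higher; within the same level range 1.69% were lower. At least 2-fold lower were 4, against 0.368% of all genes. At least 1.2-fold lower were 20 of the 31, against 5.71% of all genes. The median over all genes was 0.00 in both comparisons. The 2 comparisons share the empty vector array, so a value of that array that was high or low would move both.

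**Figure D1:**
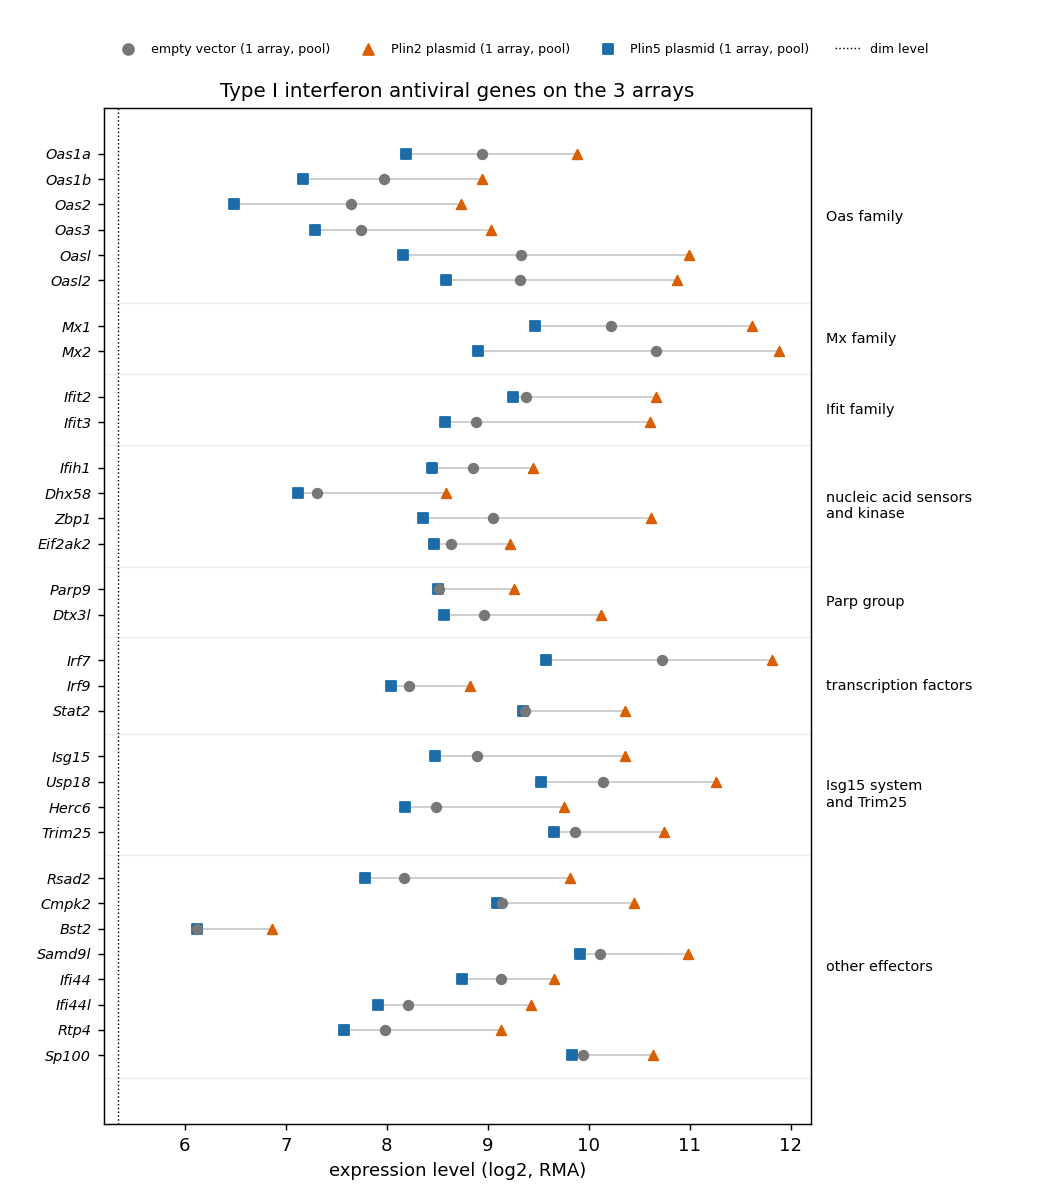
Log2 RMA expression level (horizontal axis) of the 31 measured antiviral genes, by family, on the empty vector array (grey circles), the Plin2 array (orange triangles) and the Plin5 array (blue squares); each point is 1 array of pooled RNA and the dotted line is the dim level. Every triangle lies to the right of its circle, and every square lies to the left of its circle except for Bst2, where they coincide.

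Set directly against each other, the Plin5 array was below the Plin2 array for all 31 genes, by a median of −1.56 log2 units. All 31 were lower by at least 1.5-fold and 24 by at least 2-fold, beside 11.3% and 5.17% of all genes (13% at 1.5-fold within the same level range). The gaps ran from −0.73 for Bst2 (1.66-fold) to −2.98 for Mx2 (7.87-fold) and −2.83 for Oasl (7.11-fold). This comparison does not use the empty vector array. Each of its differences is the gene's Plin5 difference minus its Plin2 difference from the empty vector. Its direction thus follows from the comparisons above and is not separate support.

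**Figure D2:**
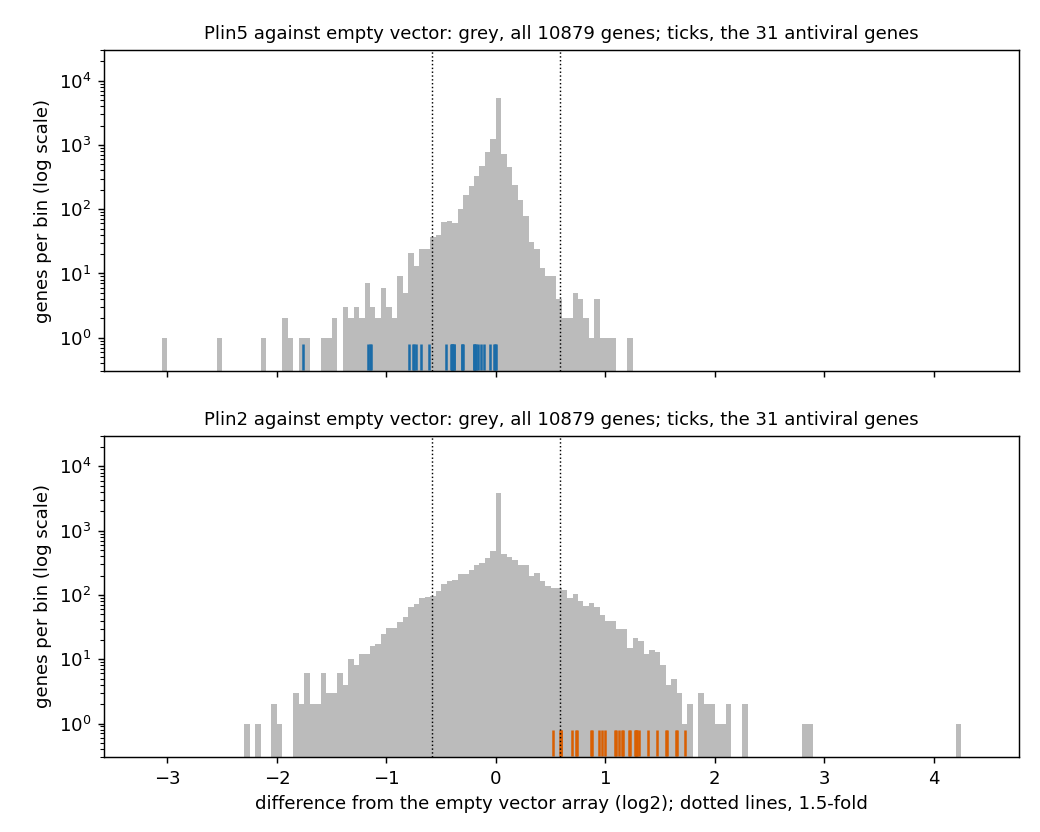
Histograms of the log2 difference from the empty vector array for all 10879 genes past the dim level (grey, genes per bin of 0.05 log2 units on a log axis), for Plin5 (upper panel) and Plin2 (lower panel), with a tick for each of the 31 antiviral genes and dotted lines at 1.5-fold. The ticks run from −1.76 to 0.00 in the upper panel and from 0.53 to 1.72 in the lower panel.

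The promoters of these genes are shown because the response element is the feature by which the pathway is known to reach them, and because the 31 genes lay on the same side of the empty vector on the Plin2 array. RefSeq promoter windows of 300 bases (250 before and 50 after the gene start, rat build GRCr8) were at hand for 25 of the 34 genes. They were searched on both strands, overlaps allowed, for the core GAAANNGAAA of the interferon-stimulated response element, where N is any base. The core was in the windows of 16 of those 25 genes (64%), against 4.12% of all 27457 genes with a window and 3.92% of all 33469 windows. The gamma-activated sequence TTCNNNGAA, an element known from the response to interferon gamma, was in 6 of 25 (24%), against 9.39% of all genes and 8.87% of all windows. A match is a run of letters, not a measured binding site. The 250 bases before the start of Oas1a, which hold a pair of overlapping matches, and of Irf7 are printed first, in the direction of transcription and with the matches in capitals.
Oas1a: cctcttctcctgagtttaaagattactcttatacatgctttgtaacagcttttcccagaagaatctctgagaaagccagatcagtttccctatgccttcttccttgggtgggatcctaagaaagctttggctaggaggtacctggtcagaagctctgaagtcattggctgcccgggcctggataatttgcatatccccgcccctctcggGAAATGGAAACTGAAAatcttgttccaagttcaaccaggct
Irf7: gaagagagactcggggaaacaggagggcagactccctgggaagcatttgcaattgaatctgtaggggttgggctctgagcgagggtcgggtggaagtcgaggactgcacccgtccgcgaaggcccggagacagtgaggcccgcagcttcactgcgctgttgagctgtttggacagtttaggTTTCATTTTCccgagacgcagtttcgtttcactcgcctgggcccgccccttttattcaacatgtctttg
The Oas1a stretch lies at chr12:41330216-41330465 on the plus strand and the Irf7 stretch at chr1:205800024-205800273 on the minus strand of GRCr8. A match reads as GAAA on the printed strand when it points with the gene and as TTTC when it lies on the opposite strand.

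The other 11 measured genes with a match are shown by the match with 15 bases on either side, so that the flanks can be compared; for Ifi44, whose matches lie far apart, the upstream one is shown, and each stretch ends at most 25 bases after the gene start.
Oas1b: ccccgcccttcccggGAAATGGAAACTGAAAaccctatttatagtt
Oas3: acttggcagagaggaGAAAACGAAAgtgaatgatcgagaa
Oasl2: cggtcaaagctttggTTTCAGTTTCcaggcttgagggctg
Ifit3: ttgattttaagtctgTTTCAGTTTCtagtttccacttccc
Ifih1: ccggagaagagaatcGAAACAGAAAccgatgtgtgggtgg
Eif2ak2: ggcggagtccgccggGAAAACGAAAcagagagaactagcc
Dtx3l: gacctcccgggaaacGAAACTGAAActttg
Rsad2: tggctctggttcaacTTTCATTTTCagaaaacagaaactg
Bst2: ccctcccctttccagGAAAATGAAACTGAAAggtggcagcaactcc
Ifi44: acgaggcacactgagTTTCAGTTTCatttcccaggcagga
Ifi44l: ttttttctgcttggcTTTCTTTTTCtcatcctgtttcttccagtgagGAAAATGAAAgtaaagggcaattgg
On the plus strand of GRCr8 these stretches lie at chr12:41439622-41439661 for Oas3, chr1:241527267-241527306 for Ifit3, chr6:21941123-21941162 for Eif2ak2, chr11:78320220-78320249 for Dtx3l and chr2:243328617-243328688 for Ifi44l. On the minus strand they lie at chr12:41395881-41395926 for Oas1b, chr12:47383312-47383351 for Oasl2, chr3:67684003-67684042 for Ifih1, chr6:48788243-48788282 for Rsad2, chr16:18255068-18255113 for Bst2 and chr2:243303842-243303881 for Ifi44. Of the 21 matches, 17 began within 100 bases upstream of the gene start or after it, and the others lay in the windows of Rsad2, Oasl2 and Bst2. In Oas1a, Oas1b and Bst2, 2 matches overlap, so that the printed capitals hold GAAA 3 times in a row with a pair of bases between.

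**Figure D3:**
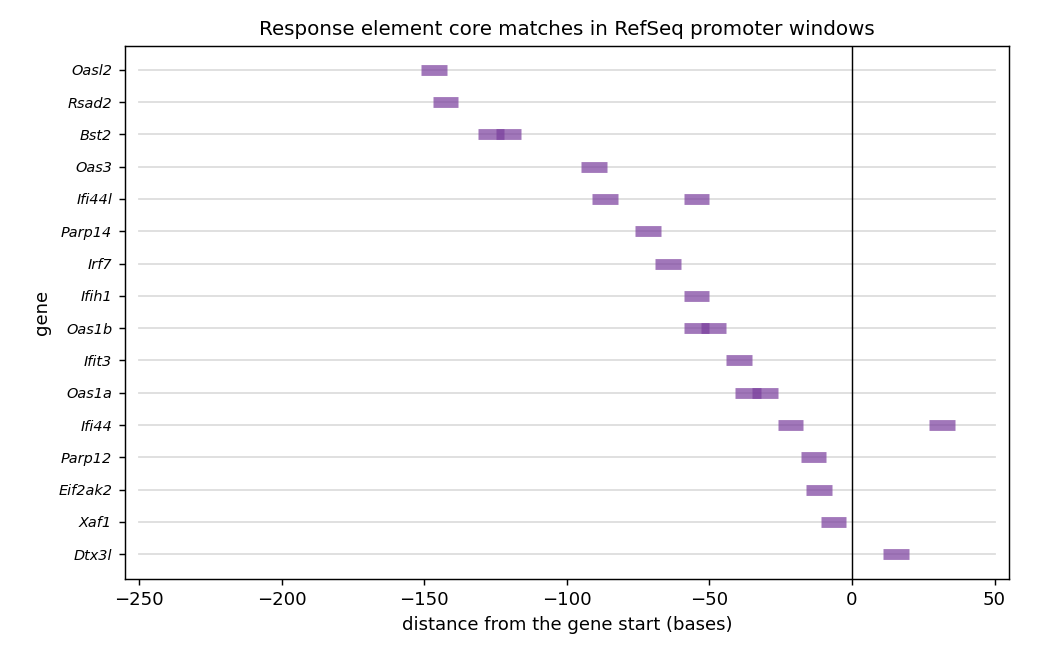
Positions of the response element core (purple bars, 10 bases each) in the RefSeq promoter windows of the 16 genes that hold it, as distance in bases from the gene start (vertical line); grey lines are the searched windows. The bars run from 151 bases before the start (Oasl2) to 36 bases after it (Ifi44).

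The measured genes with and without a match overlapped in their differences. On the Plin2 array the 13 with a match had a median of 1.09 (0.53 to 1.72), the 9 with a window but no match 1.00 (0.60 to 1.66), and the 9 without a window 1.22. With Plin5 the medians of the same groups were −0.40, −0.18 and −0.41. Genes without the letters in these windows, such as Mx1, Oasl and Cmpk2, were still among the higher genes on the Plin2 array.

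The Oas family makes 2'-5'-linked oligoadenylates, which activate the nuclease RNase L, when it binds double-stranded RNA; Oasl and Oasl2 are its relatives with ubiquitin-like domains. All 6 members were lower on the Plin5 array, 5 of them by at least 1.5-fold (family median −0.77), beside 1.42% of all genes. All 6 were higher on the Plin2 array by at least 1.5-fold (median 1.18), beside 8.84% of all genes. Oas1a had log2 levels of 8.94 on the empty vector array, 9.88 on the Plin2 array and 8.19 on the Plin5 array. Oas1b stood at 7.97, 8.94 and 7.17 in the same order. Its 3 values were spaced almost as those of Oas1a, with differences from the empty vector of 0.97 and −0.80 against 0.94 and −0.75.

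Oas2, the middle-sized enzyme of the family, stood at 7.65 on the empty vector array, 8.73 on the Plin2 array and 6.49 on the Plin5 array, where it was 2.23-fold lower. Oas3, its neighbour with no protein-coding gene between them in RefSeq, stood at 7.75, 9.03 and 7.29, and its 1.37-fold lower value on the Plin5 array was the smallest such gap in the family. Oasl (probe set 10762740) had the widest spread of the family, with 9.33 on the empty vector array, 10.99 on the Plin2 array (3.16-fold higher) and 8.16 on the Plin5 array (2.25-fold lower). Oasl2, the next gene in the same direction, stood at 9.32, 10.87 and 8.59. The Oasl and Oasl2 differences of 1.66 and 1.56 on the Plin2 array ranked 22nd and 31st from the top of 10879 genes.

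Rats carry further Oas1 copies between and around Oas1a and Oas1b, and probe sets for close copies can share signal, so the family's values are uncertain to that extent. Of 6 such copies with a probe set, which were looked up after the other values were known, Oas1d, Oas1e, Oas1f and Oas1h lay under the dim level on all 3 arrays. Oas1i stood at 7.76, 8.49 and 7.40 on the empty vector, Plin2 and Plin5 arrays. Oas1k stood at 7.08, 7.26 and 6.88. Both brighter copies were thus placed in the same order over the arrays as Oas1a and Oas1b, with smaller steps.

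Mx proteins are dynamin-like GTPases that block the replication of viruses. Mx2 (probe set 10750524) had the lowest difference of all the antiviral genes on the Plin5 array: it stood at 10.66 with the empty vector against 8.90 with Plin5, 3.38-fold lower, and ranked 7th from the bottom of 10879 genes. On the Plin2 array it stood at 11.88, 2.33-fold higher. Mx1 stood at 10.22 on the empty vector array, 11.61 on the Plin2 array (2.62-fold higher) and 9.47 on the Plin5 array (1.68-fold lower). The Mx genes lie near each other on the chromosome with Fam3b between them. With Plin5, Mx2 was lower by 1.76 and Mx1 by 0.75 log2 units, while on the Plin2 array the order was turned, with 1.22 for Mx2 and 1.39 for Mx1.

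Members of the Ifit family bind viral RNA. Ifit3 (probe set 10714903) had the largest difference of the antiviral genes on the Plin2 array, with log2 levels of 8.88 for the empty vector against 10.61 for Plin2 (3.30-fold), and ranked 19th from the top of 10879 genes. With Plin5 it stood at 8.58. Its neighbour Ifit2 stood at 9.38, 10.66 and 9.24 on the empty vector, Plin2 and Plin5 arrays. Neither reached 1.5-fold on the Plin5 array, where Ifit2 was 1.10-fold and Ifit3 1.24-fold lower. Ifit1, the third gene of this cluster, was listed at 3.37 on all 3 arrays, under the dim level, so its level was not measurable here.

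Among the sensors, Zbp1, which binds nucleic acid in the Z conformation, had the largest difference from the empty vector on both arrays. It was at 9.05 on the empty vector array, 10.62 on the Plin2 array (2.96-fold higher) and 8.36 on the Plin5 array (1.61-fold lower). Dhx58, a regulator of the RNA helicase sensors also called Lgp2, stood at 7.30, 8.58 and 7.12, a large step on the Plin2 array (1.28 log2 units) and a small one on the Plin5 array (−0.19). Ifih1, the sensor of long double-stranded RNA also called Mda5, stood at 8.85, 9.44 and 8.45. Eif2ak2, the kinase PKR that stops translation when it binds double-stranded RNA, stood at 8.64, 9.22 and 8.47. The Ifih1 and Eif2ak2 differences on the Plin2 array (0.60 and 0.59) were only just past 1.5-fold.

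In the Parp group, Parp9 and Dtx3l encode proteins that work as a complex of an ADP-ribosyltransferase-like protein and a ubiquitin ligase. Their genes lie back to back in RefSeq, transcribed away from each other from starts 1214 bases apart. Dtx3l stood at 8.96 on the empty vector array, 10.12 on the Plin2 array (2.23-fold higher) and 8.56 on the Plin5 array (1.32-fold lower). Parp9 stood at 8.51, 9.26 and 8.51, so that it was 1.67-fold higher on the Plin2 array and level with the empty vector on the Plin5 array. The response element core was 11 bases after the start of Dtx3l and was not among the letters of the Parp9 window.

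The transcription factors of the pathway did not move as a block on the Plin5 array. Irf7 (probe set 10726758), the factor that amplifies interferon alpha production, stood at 10.72 on the empty vector array, 11.81 on the Plin2 array (2.13-fold higher) and 9.58 on the Plin5 array (2.21-fold lower). Stat2, which carries the interferon receptor's signal to the nucleus, stood at 9.37, 10.36 and 9.35. Irf9, its DNA-binding partner, stood at 8.22, 8.82 and 8.04. The Irf7 difference of −1.14 on the Plin5 array thus stood beside −0.01 for Stat2 and −0.18 for Irf9, while on the Plin2 array the 3 factors were at 1.09, 1.00 and 0.60.

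Isg15 is a ubiquitin-like protein that is attached to other proteins. It stood at 8.89 on the empty vector array, 10.36 on the Plin2 array (2.77-fold higher) and 8.48 on the Plin5 array (1.33-fold lower). Usp18, which removes Isg15 and also dampens the interferon receptor, stood at 10.14, 11.26 and 9.53 and was the 1 gene of this set that reached 1.5-fold on the Plin5 array (1.53-fold lower). Herc6, the ligase that attaches Isg15 in rodents, stood at 8.48, 9.76 and 8.18. Trim25, a ubiquitin ligase that helps the sensor Rig-I, stood at 9.86, 10.74 and 9.66. The modifier, its ligase and its protease were each more than 2-fold higher on the Plin2 array, and Trim25 was 1.84-fold higher.

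Rsad2 (viperin) makes a chain-terminating nucleotide, and Cmpk2 is the kinase that feeds it; their genes lie next to each other and are transcribed in opposite directions from starts 14730 bases apart. Rsad2 stood at 8.17 on the empty vector array, 9.82 on the Plin2 array (3.13-fold higher) and 7.79 on the Plin5 array (1.30-fold lower). Cmpk2 stood at 9.14, 10.45 and 9.09. The pair was thus together on the Plin2 array (1.65 and 1.31) and less so on the Plin5 array (−0.38 and −0.05).

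Ifi44 and Ifi44l, also neighbours transcribed away from each other, differed most on the Plin2 array. Ifi44 stood at 9.13 on the empty vector array, 9.65 on the Plin2 array and 8.74 on the Plin5 array, and Ifi44l at 8.21, 9.43 and 7.91. Their differences from the empty vector were 0.53 and 1.22 on the Plin2 array, against −0.39 and −0.30 on the Plin5 array. Both windows hold 2 matches of the response element core.

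The remaining effectors were higher on the Plin2 array and at most 1.32-fold lower on the Plin5 array. Rtp4, an interferon-induced chaperone of receptors, stood at 7.98 on the empty vector array, 9.13 on the Plin2 array and 7.58 on the Plin5 array. Samd9l, which restricts poxviruses and cell growth, stood at 10.11, 10.98 and 9.92. Sp100, a component of nuclear bodies, stood at 9.95, 10.64 and 9.83. Bst2 (tetherin), which holds budding virus at the cell surface, had the dimmest probe set of the 31 and stood at 6.12 with the empty vector and with Plin5 and at 6.86 with Plin2. Exactly equal values on arrays were common in this table (24.6% of genes past the dim level were equal on all 3 arrays), so the Bst2 value on the Plin5 array is not a precise estimate of no difference.

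Upstream of the antiviral genes, 1 ligand passed the dim level and it hardly differed between arrays. Of 9 listed interferon alpha and beta type genes, 4 had a probe set. Ifna5 had 5 single-gene probe sets and Ifna4 had 2, and for each the probe set with the highest mean was used. Ifnb1 (4.27), Ifna4 (5.16) and Ifnk (4.57) were equal on all 3 arrays and under the dim level, and Ifna5 stood at 5.82, 5.82 and 5.89 on the empty vector, Plin2 and Plin5 arrays. The probe sets under the dim level give only a bound, and ligand made at another time or elsewhere was not measured. Ifnar1, a chain of the receptor, stood at 9.69, 10.44 and 9.55, and the receptor's kinase Jak1 at 10.93, 11.08 and 10.93. Ifng, the type II interferon of T and natural killer cells, was higher on both arrays, with 5.24 on the empty vector array (under the dim level), 6.54 on the Plin2 array and 6.15 on the Plin5 array.

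Tlr9 and Tlr7, receptors for nucleic acid in endosomes, were lowest with Plin5 and highest with Plin2, whereas Tlr3, the endosomal receptor for double-stranded RNA, was equal on all 3 arrays at 9.36. Tlr9, the receptor for bacterial-type DNA, stood at 9.01 on the empty vector array, 9.86 on the Plin2 array and 7.87 on the Plin5 array. Tlr7, the receptor for single-stranded RNA, stood at 9.90, 11.10 and 8.90. Unc93b1, which carries both receptors to endosomes, stood at 9.12, 10.17 and 8.54. Of 6 measured genes of the endosomal DNA list, 3 were higher by at least 1.5-fold on the Plin2 array and 1 was lower by that much on the Plin5 array (medians 0.66 and −0.18). The shares over all genes were 8.84% and 1.42%.

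The cytosolic DNA sensing list had a median of 0.72 on the Plin2 array, where 4 of 7 genes were at least 1.5-fold higher, beside 8.84% of all genes. On the Plin5 array 0 of 7 passed 1.5-fold either way. With 1.42% of all genes lower and 0.221% higher there, that count says little. Aim2, a DNA receptor of the inflammasome, stood at 5.65, 6.57 and 5.07, the last under the dim level. The nuclease Trex1 stood at 9.38, 10.18 and 9.26, and the kinase Tbk1 at 8.36, 8.85 and 8.18. In the RNA sensing list (5 measured genes) the editing enzyme Adar stood at 8.91, 9.78 and 8.46, while Mavs, the adaptor of the RNA helicase sensors, went the other way with 9.88, 9.22 and 9.99.

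Factors and target genes outside the 31 did not all share their pattern on the Plin5 array. Of the STAT and IRF factors, Irf5 (−0.68) and Irf8 (−0.51) were lower there and Irf1, a factor that interferon gamma induces, was higher (0.76); on the Plin2 array they were at 1.03, 1.10 and 1.33. Of 25 further interferon-stimulated genes, 20 were higher by at least 1.5-fold on the Plin2 array (median 0.87), beside 8.84% of all genes. With Plin5, 2 were higher and 1 lower by that much (median −0.10): the chemokines Cxcl11 (0.95) and Cxcl9 (0.84), which interferon gamma strongly induces, against Lgals3bp (−0.71). The shares over all genes there were 0.221% higher and 1.42% lower, so the count of 1 lower says little. The feedback inhibitors Socs3 (0.73) and Socs1 (0.42) were also higher on the Plin5 array, and on the Plin2 array they were at 0.97 and 1.54. Ptpn6, another negative regulator, was lower with Plin5 (−0.38) and at 1.07 with Plin2. Of the 7 measured negative regulators, 5 were above the empty vector and 2 below on the Plin5 array (median 0.07). Of the 25 further interferon-stimulated genes, 8 were above the empty vector on the Plin5 array, 16 below and 1 equal. Of all 10879 genes past the dim level, 2812 were above it there, 3699 below and 4368 equal. Of the 31 antiviral genes 0 were above it, or 3 with the median gene of every array set to 0. The antiviral genes were chosen with earlier results of these data known, and this contrast was not tested.

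**Figure D4:**
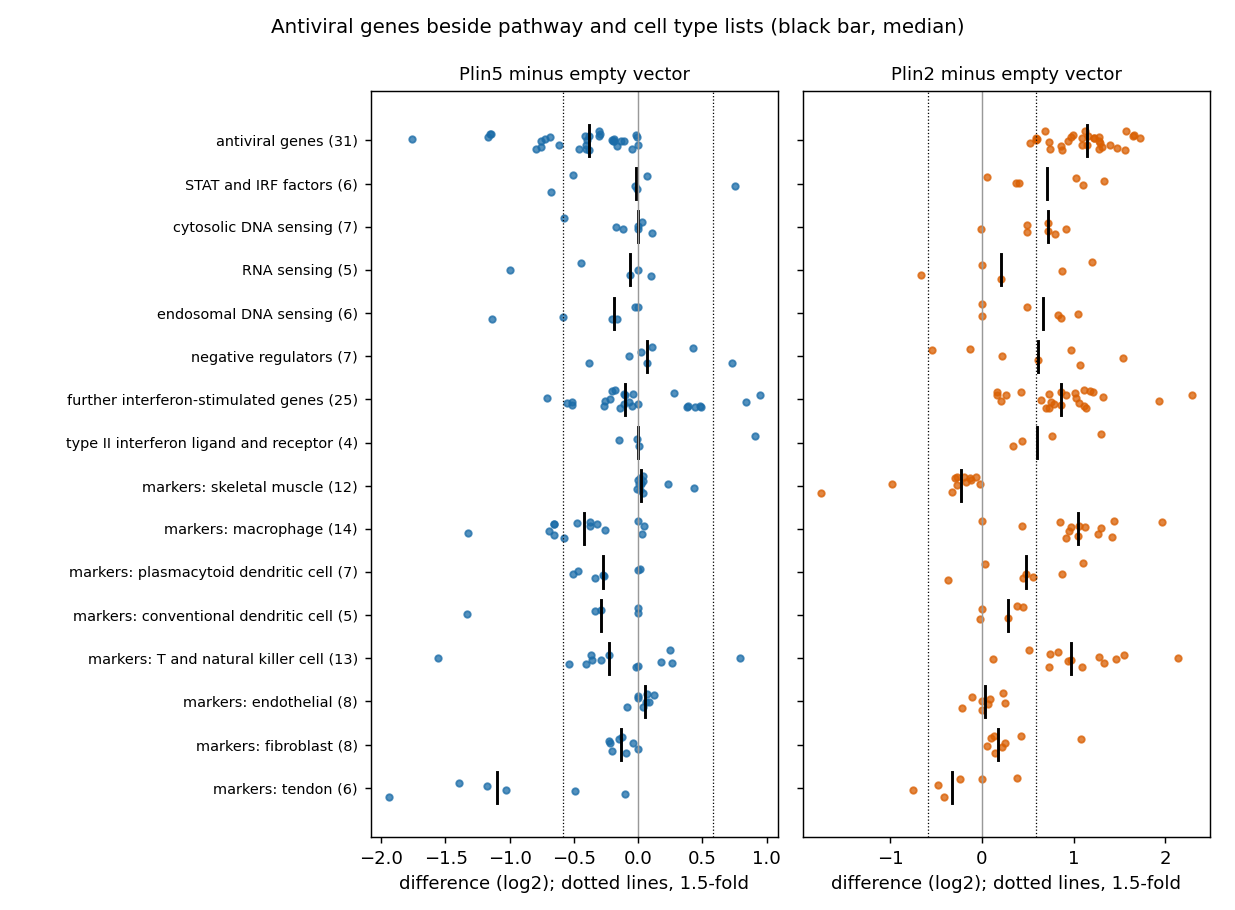
Log2 difference from the empty vector array for each gene past the dim level (points) and the median (black bar) of the antiviral genes, of pathway lists and of cell type marker lists with at least 4 such genes (numbers in parentheses), for the Plin5 array (left) and the Plin2 array (right); dotted lines mark 1.5-fold. The antiviral genes have medians of −0.39 and 1.15, macrophage markers −0.42 and 1.05, and skeletal muscle markers 0.02 and −0.23.

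Most markers of macrophages moved with the antiviral genes on both arrays. With Plin5, 5 of the 14 were at least 1.5-fold lower (median −0.42), and with Plin2, 12 were at least 1.5-fold higher (median 1.05). The shares over all genes were 1.42% and 8.84%. The macrophage markers' summed level, taken off the log scale, was 13894 on the empty vector array, 29182 on the Plin2 array and 11136 on the Plin5 array. For the 31 antiviral genes the same sums were 18462, 41134 and 12887. Trem2, a receptor of lipid-handling macrophages, was the most extreme macrophage marker (1.96 on the Plin2 array and −1.33 on the Plin5 array), and Marco was equal on all 3 arrays. On the Plin5 array 11 of the 14 markers were below the empty vector and 2 slightly above it, Cd163 (0.04) and Lyz2 (0.03). Lyz2, the brightest of them, stood at 11.96, 12.91 and 11.99 on the empty vector, Plin2 and Plin5 arrays. It weighs heavily in the macrophage sums. Whether the number of macrophages had a part in the antiviral genes' differences was not tested, and in bulk tissue fewer cells of a type and less RNA per cell cannot be told apart.

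Among T and natural killer cell markers, 11 of 13 were at least 1.5-fold higher with Plin2 (median 0.98), beside 8.84% of all genes. On the Plin5 array Gzmb was higher (0.79) and Il7r lower (−1.56) by at least 1.5-fold, beside 0.221% and 1.42% of all genes. Of the 13 markers, 4 were above the empty vector there, 8 below and 1 equal (median −0.23). Their summed level was 5341 on the empty vector array, 10844 on the Plin2 array and 4939 on the Plin5 array, and Klrb1 was under the dim level. Cd4, the brightest of these markers, stood at 11.16, 11.67 and 10.75 and weighs heavily in that sum, so the lower sum with Plin5 does not stand for all of them. Plasmacytoid dendritic cells are the main producers of interferon alpha in blood. Of their markers, 7 passed the dim level and had medians of 0.48 on the Plin2 array and −0.27 on the Plin5 array, but the list holds Irf8 and Cox6a2, which other cells and muscle fibres express, its defining marker Siglech was not analysed here, and Ccr9 lay under the dim level on average. Its summed level was 11170, 10301 and 10969, most of it from Cox6a2. Conventional dendritic cell markers had medians of 0.29 and −0.29 over 5 genes, with summed levels of 915 on the empty vector array, 1105 on the Plin2 array and 675 on the Plin5 array, and with Clec9a and Cd209a under the dim level. Of 8 neutrophil markers 7 were under the dim level, and Csf3r stood at 7.75, 9.40 and 7.40. Of the 3 measured B and plasma cell markers, Jchain stood at 7.62, 8.12 and 5.76, Cd79b was equal on all 3 arrays and Ms4a1 was under the dim level. The part of these cells in the result was not tested.

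The 8 endothelial markers had medians of 0.03 with Plin2 and 0.05 with Plin5, and 0 of them reached 1.2-fold on either array. At that fold 19.4% of all genes were higher and 15.5% lower with Plin2. With Plin5 the shares were 1.52% and 5.71%, so the count of 0 says little there. Fibroblast markers were at 0.18 and −0.13, with Thy1 (1.08 on the Plin2 array) as the 1 of 8 past 1.5-fold, beside 8.84% of all genes higher there. Tendon markers were lower on the Plin5 array (median −1.10 over 6 genes; summed level 1431, against 3184 for the empty vector and 2572 for Plin2), and their part in the antiviral genes' values was not tested. Skeletal muscle markers had medians of −0.23 on the Plin2 array, where the slow myosin Myh7 was at −1.75, and 0.02 on the Plin5 array.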

How the data were processed

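Per the labels' protocols, RNA with an integrity number over 8.0 was pooled from 6 rats per group before labelling. The deposited values are log2 levels from RMA, a method that corrects background, equalises arrays by quantiles and summarises each probe set by median polish; the submitters' processing notes name RMA and give no version. The log2 base was taken from RMA's usual output and the range of the deposited values. Equalising the arrays hides a change in total RNA, and summaries can make arrays exactly equal.

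Of 29214 probe sets, 15310 had 1 gene symbol in the platform's table, 323 listed several, and 13581 were unnamed. Per symbol the single-gene probe set with the highest mean was kept. Differences are of log2 values between 2 arrays, counted at 1.5-fold over genes whose mean passed the 25th percentile. With 1 array per group there was no test. The rule was to name all measured members, up to 3 extreme genes of each pathway and marker list in each comparison, and the introduced genes. Not all of those extreme genes were named, among them those of the endothelial and tendon lists. Named outside that rule, after their values were seen, were the dim ligands, Tlr3, Ifit1, the further Oas1 copies, Acta1, Marco, Cd163, Lyz2, Cd4, Cd79b and the plasmacytoid and dim markers. Members and lists were chosen with earlier results of these data known. Alternatives were a threshold of 1.2-fold or 2-fold, other dim filters, centring, quantile normalization, a loess correction and other choices of probe set. The counting was tested on simulated data. Sequences are from RefSeq (GRCr8); gene order was read from the RefSeq gene table of that assembly, for neighbours only. The planned comparison of protein sequences was not made. Python 3.11.15, numpy 2.4.6, pandas 2.3.3, statsmodels 0.14.6 and matplotlib 3.10.9 were used.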

Additional observations from a re-analysis of the deposited data

How the results depend on the processing

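No paired analysis was possible because each group was 1 array, and no replicate could be left out. All 31 genes had a single probe set and none was in a probe set of several symbols, so the choice of probe set changed no value. Under the other dim filters, centring, quantile normalization and the loess correction, the antiviral genes higher by at least 1.5-fold on the Plin2 array numbered 27 to 30, those lower on the Plin5 array 9 to 10, and those lower on the Plin5 than on the Plin2 array 30 to 31. The medians ran from 1.07 to 1.15, from −0.39 to −0.35 and from −1.57 to −1.43 in these 3 comparisons; the last value, −1.43, came from centring, where the median gene moved by 0.12 between the Plin5 and Plin2 arrays. Centring also changed the split of all genes past 1.5-fold on the Plin2 array from 962 higher and 631 lower to 775 and 819, and between the Plin5 and Plin2 arrays from 782 and 1225 to 1109 and 979. Fold thresholds set the counts by construction: on the Plin5 array 20 genes were lower by at least 1.2-fold, 10 by 1.5-fold and 4 by 2-fold, and on the Plin2 array 19 were higher by at least 2-fold. No alternative turned the sign of a gene past 1.5-fold. Signal over background limits the ligands, Aim2, Ifng and several leukocyte markers, and without replicate arrays a small step, such as those of Ifit2, Irf9 or Sp100 on the Plin5 array, cannot be told from array variation.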
